A study of Homo sapiens with 2 samples.

Results

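Broad H3K9me3 peaks, those of 10000 bp or more, were examined on chromosomes 1 to 22 of KBM7 cells, without chromosome 8 and without the part of chromosome 15 from 60 to 90 Mb. The rule gave 418 peaks among 126965 in the whole list, and among 115125 on the same chromosomes, of which they are 0.363%. They held 3.93% of the length of those 115125 peaks. KBM7 cells were derived from a chronic myeloid leukemia and are nearly haploid, except that chromosome 8 and a segment of 15 are disomic. Its chromatin was immunoprecipitated with the antibody ab8898 against H3K9me3 in 1 library and with IgG in the other. Both groups are untreated KBM7 cells, the line is a single tumour line, and the IgG library was not analysed here. The peaks were chosen by their measured width, so width is described and not tested. There is no replicate, and no p-value was computed.

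H3K9me3 marks constitutive heterochromatin, and is laid down at repeats, at centromere-flanking sequence and over clusters of zinc finger genes. In those clusters KRAB zinc finger proteins and the corepressor TRIM28 bring the methyltransferase SETDB1, and ZNF274 is known to do so at the ends of other zinc finger genes. HP1 proteins read the mark. In differentiated cells it also covers genes of other lineages, developmental transcription factors among them.

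Of 138 zinc finger gene intervals touched by a broad peak, 16 had the start site inside one and 105 the end. A start site under a broad peak is thus the rarer case for these genes, and the promoters printed here do not stand for them all. The promoters below, from RefSeq on GRCh38.p14, run from 250 bases before to 50 bases after the start. They belong to the 3 developmental factors and the 2 zinc finger genes with the largest part of their length in broad peaks among protein-coding genes with their start site inside and 1 promoter entry in the table. Each CG dinucleotide, the site of DNA methylation, is in capitals. OLIG3, SIX6 and HOXD4 lie at chr6:137494345-137494644 (minus strand), chr14:60508896-60509195 (plus) and chr2:176151300-176151599 (plus). ZNF501 and ZNF154 lie at chr3:44729385-44729684 (plus) and chr19:57709155-57709454 (minus).
OLIG3: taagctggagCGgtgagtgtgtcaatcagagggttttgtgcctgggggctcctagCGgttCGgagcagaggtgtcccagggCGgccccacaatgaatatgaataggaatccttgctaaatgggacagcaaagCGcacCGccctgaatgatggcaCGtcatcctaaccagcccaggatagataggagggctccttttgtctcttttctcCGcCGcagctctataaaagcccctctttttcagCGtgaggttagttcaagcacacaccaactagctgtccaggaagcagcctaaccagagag
SIX6: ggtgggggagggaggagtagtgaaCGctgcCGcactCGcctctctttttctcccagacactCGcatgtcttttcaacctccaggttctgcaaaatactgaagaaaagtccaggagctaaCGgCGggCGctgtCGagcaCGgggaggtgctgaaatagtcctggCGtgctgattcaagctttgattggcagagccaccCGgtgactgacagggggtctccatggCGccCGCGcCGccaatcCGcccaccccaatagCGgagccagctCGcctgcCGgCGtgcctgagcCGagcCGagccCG
HOXD4: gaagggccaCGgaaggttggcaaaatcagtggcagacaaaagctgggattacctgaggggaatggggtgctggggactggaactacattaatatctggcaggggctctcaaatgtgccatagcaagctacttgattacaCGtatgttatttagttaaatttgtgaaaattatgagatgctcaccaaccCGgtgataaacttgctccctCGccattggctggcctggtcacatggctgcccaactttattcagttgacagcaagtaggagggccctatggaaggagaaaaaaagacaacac
ZNF501: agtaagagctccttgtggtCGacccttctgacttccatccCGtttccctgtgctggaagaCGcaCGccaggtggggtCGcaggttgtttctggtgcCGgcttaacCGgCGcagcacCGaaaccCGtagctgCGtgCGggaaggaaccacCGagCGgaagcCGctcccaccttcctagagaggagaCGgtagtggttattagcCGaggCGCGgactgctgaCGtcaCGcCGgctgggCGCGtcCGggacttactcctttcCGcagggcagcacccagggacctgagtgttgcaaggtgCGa
ZNF154: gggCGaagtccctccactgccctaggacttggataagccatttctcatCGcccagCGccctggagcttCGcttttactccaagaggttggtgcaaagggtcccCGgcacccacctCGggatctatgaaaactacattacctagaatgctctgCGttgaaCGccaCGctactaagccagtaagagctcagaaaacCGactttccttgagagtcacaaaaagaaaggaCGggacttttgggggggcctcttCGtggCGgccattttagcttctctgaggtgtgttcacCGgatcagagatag
They hold 10 CG in OLIG3, 23 in SIX6, 4 in HOXD4, 27 in ZNF501 and 14 in ZNF154. Among 22112 promoters of that length with 1 entry, 53.7% held 10 CG or more, with a median of 12. Among the 9264 of protein-coding genes on the chromosomes kept, 73.7% did, with a median of 23. Against that median OLIG3, HOXD4 and ZNF154 were lower, SIX6 was equal and ZNF501 was higher. CG reads the same on both strands, so 1 strand was searched, and windows were not compared between builds.

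The name single-copy refers to the known karyotype, and copy number was not measured here. Gene intervals of 1 kb or more on the chromosomes kept had median gene scores of 24.3 to 49.9 reads per kb, against 85.9 on chromosome 8 and 66.8 on chromosome 15 from 60 to 90 Mb. The gene score is the number of reads over a gene interval divided by its length in kb, on a linear scale, and is not corrected for IgG or depth. The table holds 40237 intervals that sum to 78512210 reads, and overlapping intervals share reads. Some broad peaks lie in sequence that recurs in the genome, such as HYDIN, which has a near-identical copy elsewhere, the tandem small nucleolar RNAs of chromosome 15 and stretches beside centromeres. For these the source of the reads cannot be told apart, and mappability was not used here.

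Broad peaks were mostly a little over the minimum, with a few far above it. Width had a median of 12600 bp, with 10950 to 15600 bp at the 25th and 75th percentiles, and reached 60750 bp. All starts and ends lie on a grid of 150 bp, so the narrowest members were 10050 bp wide (22 peaks) and the widest peaks left out were 9900 bp wide (19 peaks). Of the former 4 lay over a zinc finger gene and 9 over no gene interval, and of the latter likewise 4 and 9. The counts on both sides of the edge were thus alike. Members lay among other peaks: in the 100 kb on each side a median of 31.9% of the sequence was in peaks, against 9.53% around narrower peaks. Of the members 101 (24.2%) abutted another peak with no base between them, and of the narrower peaks 13.0% did.

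Chromosome 19 held 119 of the 418 members (28.5%, 95% exact binomial interval 24.2 to 33.1), whereas 4.22% of narrower peaks lay there. It had 2.01 members per Mb. The other chromosomes had 3 to 29 members each and 0.0283 to 0.310 per Mb, with chromosome 16 (28 members) highest per Mb among them and chromosome 9 (4) lowest. Chromosome 12 had 29 members, chromosome 1 had 26, chromosomes 2 and 5 had 21 each, chromosome 10 had 20, and chromosome 22 had 3. Of all peaks 2.40% were broad on chromosome 19, 0.826% on chromosome 16 and 0.731% on chromosome 21, with a median of 0.267% over the chromosomes other than 19. Within 5 Mb of the first base or of the last coordinate of a chromosome lay 144 members (34.4%), against 12.6% of narrower peaks. Chromosome 12 had 19 of its 29 there, chromosome 4 had 15 of 19 and chromosome 13 had 10 of 15.

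**Figure D1:**
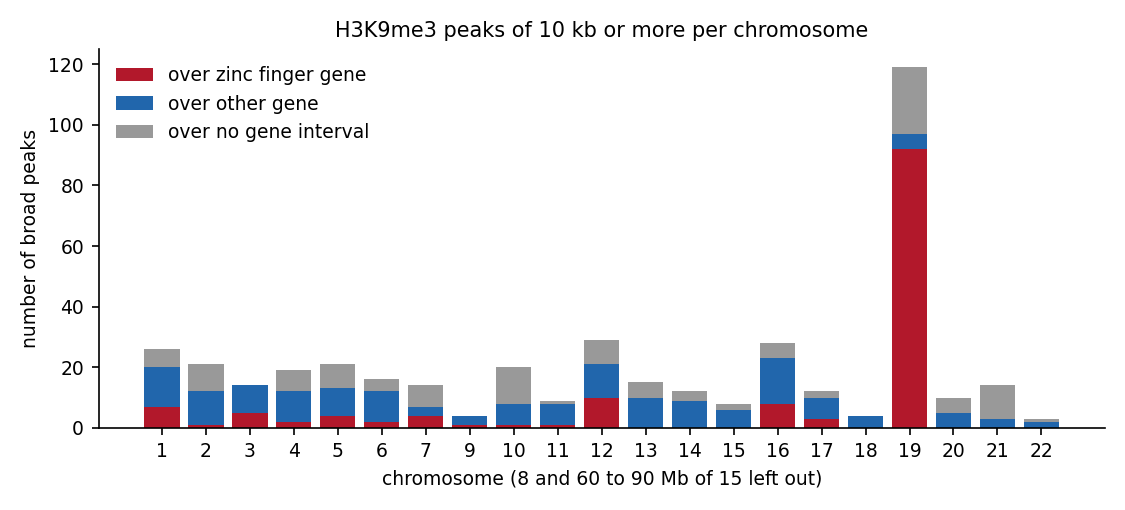
Number of broad peaks on each chromosome, with colours for peaks over a zinc finger gene, over another gene or over no gene interval. Chromosome 19 stands above the others with 119 peaks, 92 of them over zinc finger genes, and no other chromosome has more than 29.

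Of the 418 broad peaks, 141 overlapped a zinc finger gene with a ZNF or ZFP number, 159 overlapped only other genes and 118 overlapped no gene interval. The first share was 33.7% (29.2 to 38.5), against 1.65% of narrower peaks. A wide peak touches a gene more easily than a narrow one, so length is the fairer scale: 26.5% of the length of broad peaks lay inside zinc finger genes, 2.68% of that of narrower peaks, and 0.683% of all sequence up to the last coordinates. Any gene interval held 54.6% of the length of broad peaks, 47.7% of that of narrower peaks and 49.5% of all sequence. The share over zinc finger genes was higher in each wider class up to 20000 bp, from 1.01% of peaks below 1000 bp to 8.93% from 5000 to 10000 bp, 29.5% from 10000 to 15000 bp and 48.6% from 15000 to 20000 bp. It was 37.5% of the 48 peaks of 20000 bp or more, with an interval of 24.0 to 52.6 that overlaps that of the class before. Without chromosome 19 the share of broad peaks over zinc finger genes was 16.4% of 299 and the share of length 13.4%, and among narrower peaks of these chromosomes 0.766% lay over one. Intervals cover counting error only, and neighbouring peaks are not independent.

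**Figure D2:**
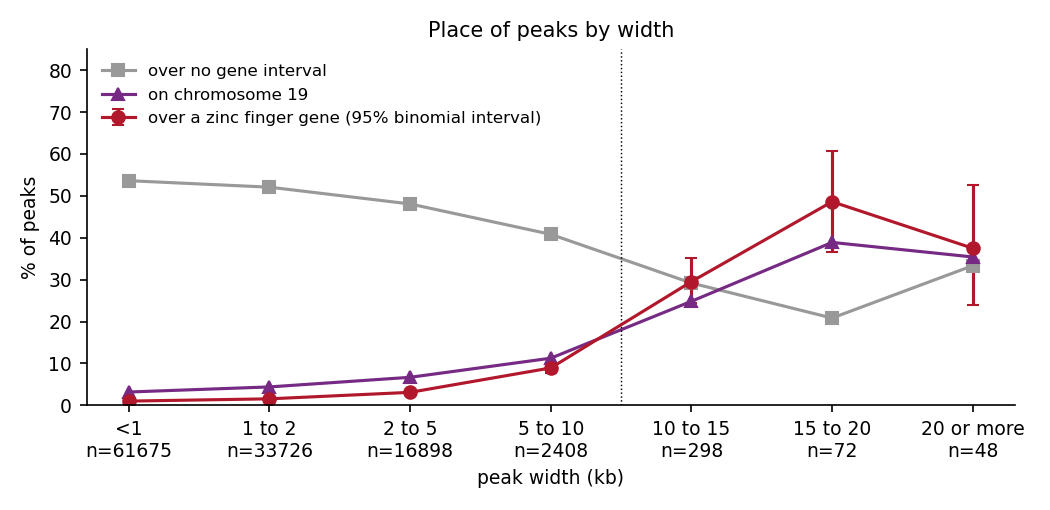
Share of peaks (percent) over a zinc finger gene, over no gene interval and on chromosome 19, by peak width in kb, with the number of peaks under each class; the dotted line marks 10 kb. The share over zinc finger genes climbs from 1.01% to 48.6% at 15 to 20 kb and is 37.5% in the widest class.

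The zinc finger genes under broad peaks were covered mostly towards their ends. These genes encode DNA-binding repressors whose fingers are mostly read from 1 long last exon. Broad peaks touched 137 of 509 zinc finger symbols (26.9%), whereas they touched 1.29% of all 32299 symbols. Of the 138 intervals touched, 105 had their end inside a broad peak (76.1%, 68.1 to 82.9) and 16 had their start site inside (11.6%, 6.77 to 18.1). A median of 55.3% of the interval lay in broad peaks. With each gene cut into 10 equal parts, mean cover was 20.4% in the first and 78.6% in the last. On chromosome 19 76 of 93 had the end and 11 the start inside, and on the other chromosomes 29 and 5 of 45. Their promoters were rich in CG: 99 of the 102 touched zinc finger genes with a single promoter entry held 10 CG or more, in the window where ZNF501 holds 27, but so did 92.5% of all zinc finger promoters.

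The widest broad peak over a zinc finger gene spanned 37350 bp at 58747201 to 58784550 of chromosome 19 (hg19) and overlapped ZNF544 and the clone-named AC020915.1. ZNF544 had 8081 reads over 34.9 kb, a score of 231 reads per kb (95% Poisson interval 226 to 236), and 79.6% of it lay in broad peaks. The next, 35250 bp at 58696501 to 58731750, covered 93.1% of ZNF274, the zinc finger protein that recruits SETDB1, at 285 reads per kb (279 to 291). On chromosome 16 the interval 68582251 to 68617200, 34950 bp wide, covered 68.6% of ZFP90, a KRAB repressor, at 180 reads per kb. Only 13.1% of the 100 kb on each side of the ZFP90 peak was in peaks, against 89.9% around ZNF274 and 80.7% around ZNF544. The ZFP90 peak thus had sparser surroundings, though still above the median of 9.53% around narrower peaks. Those of chromosome 19 stood in stretches that were mostly marked. A peak of 33300 bp covered 94.4% of ZNF761 (179 reads per kb). A peak of 32850 bp began at 37951 of chromosome 4, the first coordinate of that chromosome in the data, and held the start site of ZNF595, at 252 reads per kb. ZNF549 (28950 bp) on chromosome 19 and ZNF695 with ZNF670 on chromosome 1 (26400 and, over ZNF670 alone, 25500 bp) followed. The intervals of ZNF695 and ZNF670 overlap and share reads. The largest parts in broad peaks were 98.3% for ZNF501, 97.0% for ZNF776 and 96.5% for ZNF304, with scores of 185, 261 and 249 reads per kb.

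A minority of broad peaks came in runs, and most of these runs lay along zinc finger clusters. A run, 4 or more members each within 100 kb of the next, was found 18 times and took in 130 of the 418 members. Runs of narrower peaks were not counted. Of the 18 runs 11 lay on chromosome 19 and 16 held a zinc finger gene. The longest spanned 829.8 kb at 58041301 to 58871100 of chromosome 19 and held 21 members, 18 of them over zinc finger genes from ZNF549 and ZNF550 through ZNF274 and ZNF544 to ZNF497. Broad peaks took up 43.3% of it. Near the end of chromosome 12 a run of 12 members spanned 299.25 kb at 133516351 to 133815600, with 10 over zinc finger genes (ZNF605, ZNF26, ZNF84, ZNF140, ZNF891, ZNF10 and ZNF268), and 56.1% of it lay in broad peaks. ZNF84 was 90.9% covered at 216 reads per kb and ZNF10 90.7% at 176. The densest run lay at 52363201 to 52641750 of chromosome 19, with 10 members, 58.6% of its length in broad peaks, and ZNF577, ZNF649, ZNF613, ZNF350, ZNF615, ZNF614, ZNF432 and ZNF616 under them. A run of 9 members on chromosome 16, at 3227101 to 3466050, mixed zinc finger genes (ZNF263, ZNF75A, ZNF434 and ZNF174) with OR1F1, an olfactory receptor at 241 reads per kb, and MEFV, which encodes the inflammasome protein pyrin, at 188. The other runs with zinc finger genes outside chromosome 19 lay on chromosomes 1, 3 and 4. They held ZNF695, ZNF670 and ZNF124 on chromosome 1 and ZNF852, ZNF167, ZNF660, ZNF197, ZNF35 and ZNF501 on chromosome 3. On chromosome 4 only 1 of the 6 members lay over a zinc finger gene, ZNF721. Both runs without one lay on chromosome 10 at 47028901 to 47145900, over the clone-named XXyac-YR14BB7.1, and on chromosome 13 at 114463351 to 114640050.

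**Figure D3:**
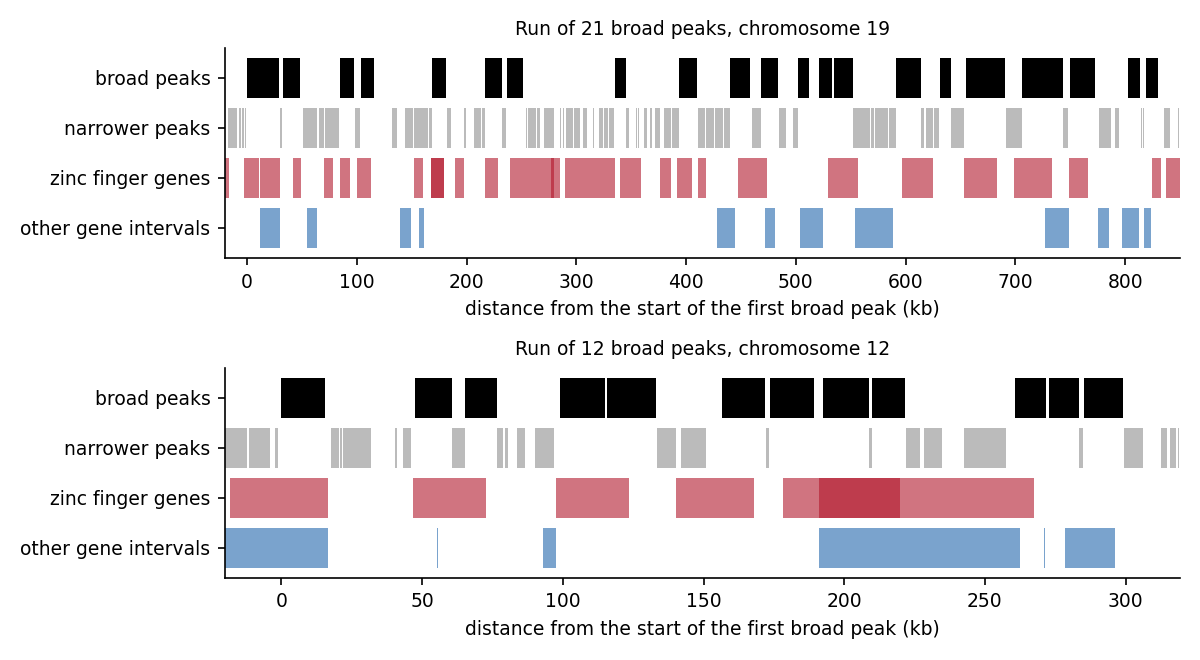
Maps of the 2 runs with most members, with broad peaks, narrower peaks, zinc finger genes and other gene intervals drawn to scale against distance in kb from the first broad peak. The 21 broad peaks on chromosome 19 and the 12 on chromosome 12 follow the zinc finger genes, with narrower peaks between them.

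Among gene classes, zinc finger genes, small nucleolar RNAs and developmental factors had the largest shares under broad peaks, beside 1.29% of all symbols and 1.47% of protein-coding ones. Of 414 small nucleolar RNA symbols 34 were touched (8.21%) and of 225 developmental factors 18 (interval 4.81 to 12.3%). Of the 34, 33 were SNORD115 and SNORD116 copies in tandem on chromosome 15, under the 3 members of SNHG14. The small nucleolar RNA share thus describes that locus and not the class at large. The developmental list was put together after these genes were seen under the peaks, so its share is a description. Without zinc finger names 113 of 16426 protein-coding symbols were touched (0.688%). MicroRNAs had 19 of 604 (3.15%). HOX genes had 2 of 41, other homeobox and PAX genes 3 of 86, sodium and calcium channels 2 of 47, potassium channels 3 of 100, cadherins 2 of 53 and keratin-associated proteins 2 of 93. Olfactory receptors had 1 of 379 (0.264%), OR1F1, although 79 of them had a peak of some width. Clustered protocadherins had 0 of 49 (interval up to 7.25%) and keratins 0 of 57 (up to 6.27%), although 42 and 39 of them had a peak. Core histone, ribosomal protein, muscle myosin and actin, and ADAM and metalloprotease genes had 0 of 72, 69, 37 and 61, and immunoglobulin and T cell receptor segments 0 of 550. Longer genes are touched more easily, and these shares were not corrected for length. Median lengths were 0.4965 kb for histones, 0.462 kb for these segments and 1.035 kb for olfactory receptors, against 11.8 kb for all symbols. Small nucleolar RNAs, at 0.0865 kb, were short too but had a large share. Zinc finger genes named otherwise had 2 of 68, ZSCAN1 and ZSCAN22, both within the longest run.

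**Figure D4:**
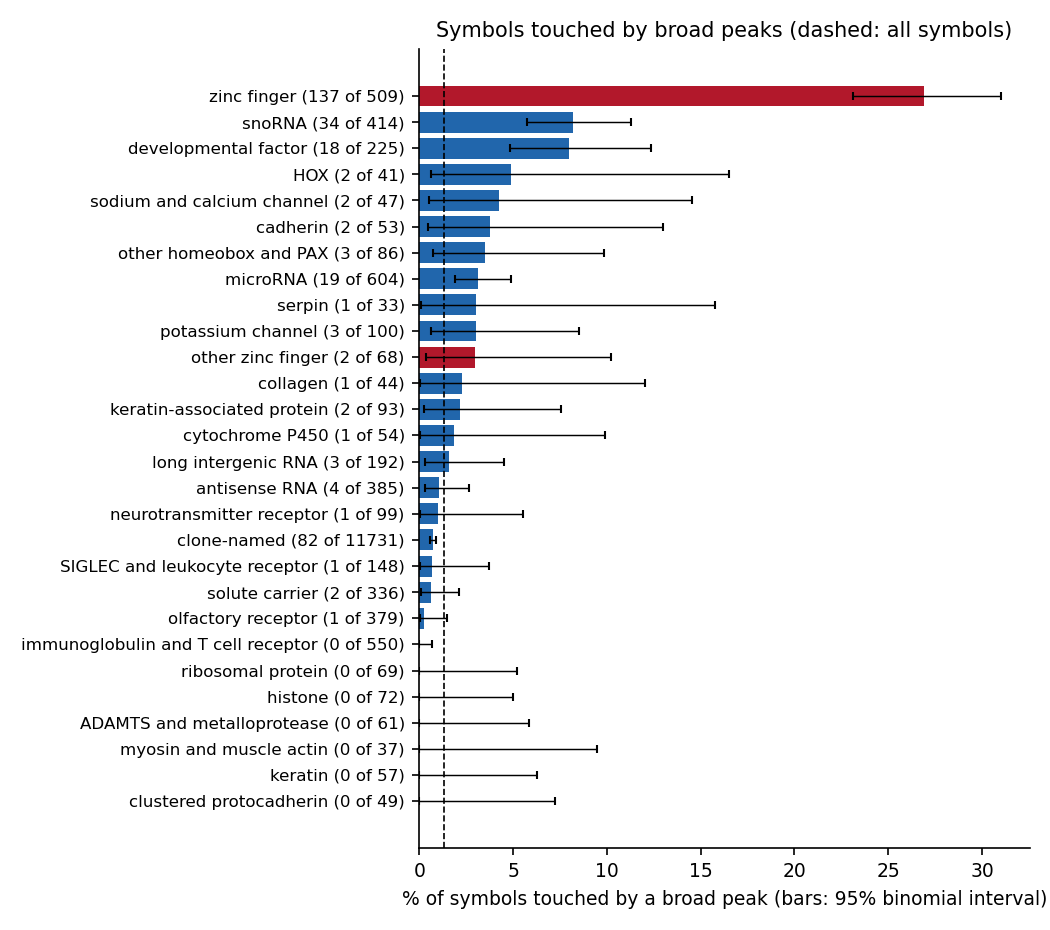
Share of the symbols of each gene class touched by a broad peak (percent), with 95% binomial intervals and the counts beside each name; the dashed line is the share of all symbols. Zinc finger genes stand at 26.9%, and the intervals of most other classes include 1.29%. Of the 34 small nucleolar RNAs touched, 33 are tandem copies on chromosome 15, and the interval treats them as independent.

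Broad peaks held 99 members with the start site of a gene inside (23.7%), against 2.14% of narrower peaks, and the start sites of 0.536% of all symbols. Per Mb of peak the numbers of such peaks were alike, with 16.2 among broad and 16.5 among narrower ones. A peak with several start sites counted once, such as the member over SNORD116 with 20. The number of start sites per Mb was not compared. Of the members 16 (3.83%) overlapped a developmental transcription factor, against 0.278% of narrower peaks, which per Mb of peak is 2.62 and 2.14. Of the 18 intervals, 12 had the start site in a broad peak and 9 the end. These were short genes, with a median of 9.79 kb against 22.4 kb for the zinc finger genes touched, so that a broad peak takes in a start site more easily, and the genes were listed after being seen there. HOXD4, OLIG3, PDX1, SIX6 and SOX14 lay wholly inside. OLIG3, a factor of the neural tube, had 404 reads per kb (378 to 432). SOX14, of brain interneurons, had 368 (328 to 412) on 301 reads. SIX6, of the eye, had 274 (257 to 291), and PDX1, of the pancreas, had 266 (254 to 280). OTX2, of the forebrain and eye, was 98.2% covered at 207 reads per kb (198 to 216). HOXD4 was lowest of the wholly covered genes at 151 (140.3 to 162), under a 20400 bp member (chromosome 2, 177009601 to 177030000) that also covered 53.4% of HOXD3 and MIR10B.

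In other developmental genes the broad peak took in one side. DMRTA2, HAND2 and IRX4 had the end and not the start inside, with 82.0%, 79.5% and 72.0% of their length covered. VSX1, NR2E1, DMRT3, TBX5, TBX15 and ZIC1 had the start inside and less of their length, from 42.7% in VSX1 of the retina to 7.49% in TBX15 and 5.34% in ZIC1. The peak at the TBX15 start was 19500 bp wide, at 119524201 to 119543700 of chromosome 1. TBX5, of the heart and forelimb, had 10.4% covered at 92.5 reads per kb. ZIC4, of the cerebellum, had 62.7% covered with neither end inside, and EVX2 was touched over 0.792% only. These peaks stood in sparser surroundings, with a median of 12.0% of the flanking 100 kb in peaks, against 62.5% for members over zinc finger genes and 12.4% for narrower peaks over the same factors. Of the 12 developmental symbols with the start site inside, 5 had a single promoter entry. These promoters held 4 to 26 CG, and 4 of them held 10 or more. Among all developmental factors with a single entry 92.0% held 10 or more.

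**Figure D5:**
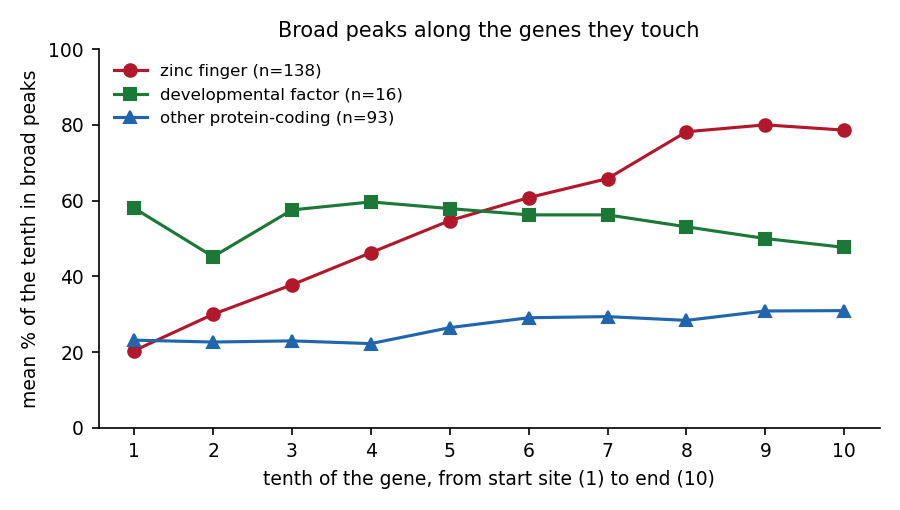
Mean share (percent) of each of 10 equal parts of a gene in broad peaks, from the start site (1) to the end (10), for gene intervals of 3 kb or more touched by one. Zinc finger genes go from 20.4% to 78.6%, whereas developmental factors have 58.0% in the first part and 47.7% in the last.

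The 159 broad peaks over other genes lay on 249 symbols, of which 108 were matched to protein-coding genes. Of these peaks 108 overlapped a protein-coding symbol and 30 held the start site of one, 61 lay within 5 Mb of a chromosome end and 23 belonged to a run. Other protein-coding intervals touched, 97 in all, had a median of 19.6% of their length covered, with 25 start sites and 31 ends inside. They were long genes, with a median of 54.2 kb against 22.4 kb for the zinc finger genes touched. Long genes are touched more easily: protein-coding symbols without zinc finger names had a median of 27.1 kb, and those of them touched 49.5 kb.

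The widest of these peaks, 38850 bp at 25295101 to 25333950 of chromosome 15, lay over SNHG14, the host transcript of the imprinted Prader-Willi locus, and over SNORD116-1 to SNORD116-20. SNHG14 carried 3 members in all, with 14.6% of its 439.9 kb in them, and the other members there covered 13 copies of SNORD115. The 20 SNORD116 intervals had 368 to 968 reads per kb on 34 to 92 reads each, and the 13 of SNORD115 had 366 to 573 on 30 to 47. These intervals are about 0.1 kb long, and how reads at their edges were counted is not given in the labels, so their scores were not set beside those of long genes. The whole SNHG14 interval had 81.8 reads per kb.

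HYDIN, a protein of motile cilia on chromosome 16, carried 5 members, the most of all intervals touched, of which the widest spanned 33000 bp at 71147101 to 71180100. Together they took 20.9% of its 423.3 kb, at 134 reads per kb (133 to 135). CFDP1 on the same chromosome carried 3. On chromosome 4 CTBP1, a transcriptional corepressor, had a member of 26550 bp at 1213951 to 1240500 within it and its start site in another of 13200 bp at 1243651 to 1256850. In all 69.2% of its length lay in members, at 152 reads per kb. Nearby, PDE6B, the phosphodiesterase of rod cells, had 69.0% covered with the start inside, PIGG, of GPI anchor synthesis, 76.1%, and PCGF3, a Polycomb protein, 16.9%. MAPK9, the kinase JNK2, had 62.1% of its length in 2 members on chromosome 5 and 181 reads per kb, with neither its start site nor its end inside. KCNG2, a potassium channel subunit near the end of chromosome 18, had its end in a member of 23400 bp and 35.7% covered. TRIM67 on chromosome 1 had 34.8% covered under 20700 bp, and LINC00452 on chromosome 13 46.2% under 26700 bp. HCG17 and HCG18 on chromosome 6 shared a member of 23100 bp, and AC093802.1 on chromosome 2 lay under 25050 bp.

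On several chromosomes the widest member spanned 16200 bp or less. It lay over PKNOX2 on chromosome 11 (16200 bp), CRHR1, a receptor for corticotropin-releasing hormone, on 17 (16050 bp), KIAA1755 on 20 (14700 bp), SIX6 on 14 (14100 bp), FBLN1, of the extracellular matrix, on 22 (13500 bp) and ABO, the blood group glycosyltransferase, on 9 (12300 bp). ABO had its start site inside and 122 reads per kb (117 to 127). Chromosome 3 had its widest over ZNF717 (22500 bp). A member of 19200 bp on chromosome 21 fell on the interval given for MX2, which is 3012.8 kb long and was kept as deposited.

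Imprinted microRNAs of chromosome 14 lay wholly under 2 members, at 101509651 to 101519700 and 101523601 to 101533950, and MEG3, the imprinted long RNA of that locus, had 14.5% of its length in another. Of the 20 microRNA intervals touched on all chromosomes, 17 were these, and all 20 lay wholly inside. Their scores ran from 419 reads per kb for MIR1185-2 (36 reads) to 870 for MIR377 (60 reads), with the limit for short intervals given above. Of 19 microRNA symbols 18 were matched in RefSeq (GRCh38.p14), with 33 mature sequences and 31 seeds. A seed, bases 2 to 8, is the part that pairs with target messages. Shared seeds occurred in 2 pairs, all from this locus, shown with the seed in capitals to let the tandem copies be compared.
hsa-miR-487a-5p: gUGGUUAUcccugcuguguucg
hsa-miR-487b-5p: gUGGUUAUcccuguccuguucg
hsa-miR-487a-3p: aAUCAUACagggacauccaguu
hsa-miR-154-3p: aAUCAUACacgguugaccuauu
MIR154, MIR487A and MIR487B had 821 (639 to 1040), 663 (496 to 867) and 679 (514 to 879) reads per kb, and these Poisson intervals overlap one another.

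The 118 broad peaks over no gene interval made up 28.2% of members (24.0 to 32.8), whereas 52.1% of narrower peaks lay over none, a contrast to be read with the shares of length given above. Of them 36 lay within 2 Mb of the largest empty stretch of a chromosome, the longest run of 2 Mb or more with neither a peak nor a gene interval, which on most chromosomes is where the assembly has its centromere gap. In all 42 members (10.0%) lay there, against 2.98% of narrower peaks. Chromosomes 13, 14, 15 and 22 had no such stretch, so none of their peaks could count. The 5 widest members over no gene were 60750 bp at 32511751 to 32572500 of chromosome 16, 112.3 kb from TP53TG3; 60750 bp at 24510451 to 24571200 of chromosome 19, between ZNF254 and AC006504.2; 57300 bp at 10772401 to 10829700 and 31650 bp at 10829851 to 10861500 of chromosome 21; and 41100 bp at 190471351 to 190512450 of chromosome 4, 68.3 kb from RP11-462G22.1. The peaks of chromosome 19 and chromosome 21 among them lay beside the empty stretch. The pair on chromosome 21 is parted by a single step of the grid and lies between SNORA70 and IGHV1OR21-1. Chromosome 10 had its widest member, 30600 bp, at 38772451 to 38803050, chromosome 7 had 26700 bp at 61867651 to 61894350, and chromosome 12 had 21450 bp at 34464001 to 34485450, all beside the empty stretch and over no gene.

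Members over no gene and away from these stretches, 82 in all, had a median of 14.9 kb to the nearest gene interval. The nearest gene was a zinc finger gene for 17 of the 118, at a median of 11.5 kb, and some of the 17 lay beside the empty stretches. The same share was not computed for narrower peaks, so it cannot be called high or low. Among the 17 was a member of 26550 bp at 53526001 to 53552550 of chromosome 19, 17.3 kb from ZNF160. Members were found beside arrays whose genes none of them touched: one of 10350 bp lay 15.3 kb before PCDHA1 and one of 11100 bp 10.6 kb from PCDHB15, of the clustered protocadherins. A member of 10200 bp on chromosome 10 lay 23.7 kb from PAX2, a factor of the kidney and eye. These 3 were picked after their places were seen.

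Gene scores were higher where more of a gene lay in broad peaks. Both come from the same reads, so this is no independent support for the peaks. Intervals of 1 kb or more had a median of 80.6 reads per kb where up to 10% lay in broad peaks, 134 from 10 to 50%, 179 from 50 to 90%, and 207 above 90%. The last group held 53 intervals, from 136 to 404 reads per kb. All 26474 intervals of that length on these chromosomes had a median of 37.1, and the 15316 without a peak had 24.4. The lowest of the most covered group lay above the 75th percentile of all intervals, 58.9. The authors' peak list gives no height, so no value inside a peak between genes could be measured.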

How the data were processed

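One H3K9me3 ChIP-seq library of KBM7 cells was used, and its IgG library was not analysed here. The submitters' processing notes list hg19, MACS and Bowtie2, and no version, role or threshold is given in the sources used here. Deposited by the authors were read counts per gene interval, not normalised, a score equal to that count over interval length (kb), and peak positions without height. Coordinates are hg19 unless GRCh38.p14 is named.

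Peaks were chosen by width, set against gene intervals with an overlap of 1 bp, and described by counts, shares (exact binomial intervals) and scores (exact Poisson intervals), at 95%. These cover counting error only, since reads are not molecules and total depth is not given. Members and gene lists were chosen with earlier results of these data known. Genes named are those of the 15 widest members and of the 15 widest over other genes, the widest on each chromosome, the 5 widest over no gene, runs, and the 3 genes most covered per class; others, and the developmental list, were picked after their values were seen. Gene types came from RefSeq (20107 of 32299 symbols matched). Overlap code was checked on simulated intervals. Tools were scipy 1.17.1, matplotlib 3.10.9, pandas 2.3.3, numpy 2.4.6 and Python 3.11.15.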

Additional observations from a re-analysis of the deposited data

How the results depend on the processing

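Of 15 alternatives run, 3 were chosen after seeing the data. A share was taken to have moved when it left the binomial interval of its reported value. For the share of length that interval (22.4 to 31.1) was computed as if for a count of 418 peaks, so it is a rough yardstick only. The number of broad peaks has no such interval and was judged by a fixed limit of fold change. With width minimums of 5000, 15000 and 20000 bp there were 2826, 120 and 48 peaks, of which 12.6%, 44.2% and 37.5% lay over zinc finger genes, 39.0%, 25.8% and 33.3% over no gene and 13.8%, 37.5% and 35.4% on chromosome 19, and 13.4% of their length lay in zinc finger genes at 5000 bp. Joining peaks closer than 1000 or 3000 bp gave 1324 or 3314 broad peaks, with 19.4% or 8.03% over zinc finger genes, 17.7% or 9.49% of length in them, 33.1% or 40.9% over no gene and 19.1% or 9.81% on chromosome 19. Without chromosome 19 the share over zinc finger genes was 16.4% and that of length 13.4%. The share over no gene was 42.1% with an overlap of 50% of the peak, 40.7% with protein-coding symbols only and 21.8% without peaks beside the largest empty stretch, and 274 members remained without those near chromosome ends. Joining only peaks that touch gave 527. Leaving out all of chromosome 15 or its part from 55 to 95 Mb, adding further zinc finger names and leaving out gene intervals over 2 Mb moved none of the results they were run for. Of the values above, 37.5% over zinc finger genes at 20000 bp, 25.8% over no gene at 15000 bp and the count of 527 had not moved. The cause of the moves was not tested, beyond the changed choice of peaks. No paired analysis was possible because each group has 1 sample. Depth inside peaks is not known, so members could not be ranked by strength, and a wide peak split by a short gap counts as narrower ones.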

Other observations

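Broad peaks were also counted across the bounds of the part left out on chromosome 15. In windows of 5 Mb there were 0 broad peaks from 55 to 60 Mb and 22 from 60 to 65 Mb, with median widths of 1050 and 2550 bp, and 14 from 85 to 90 Mb against 1 from 90 to 95 Mb, with medians of 2550 and 900 bp. The window from 70 to 75 Mb held 41. Gene intervals of 1 kb or more had a median of 36.8 reads per kb from 55 to 60 Mb, 64.2 from 60 to 65 Mb and 33.95 from 90 to 95 Mb. These scores did not separate the windows inside from those outside: they were 53.6 from 75 to 80 Mb and 55.4 from 85 to 90 Mb, but 57.4 from 25 to 30 Mb and 62.3 from 95 to 100 Mb. Copy number was not measured here.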
